A study of Mus musculus with 4 samples.

Results

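The genes described here encode the proteins of the small, or 40S, subunit of the cytosolic ribosome. They were taken by symbol from the RefSeq protein-coding genes of mm10 (assembly GRCm38.p6): Rps followed by a digit, or Rpsa, without the S6 kinase genes (Rps6k) and the mitochondrial Mrps genes. This gave 35 of 21887 nuclear protein-coding genes. Of these, 33 encode a ribosomal protein or a close paralog of a ribosomal protein. Rps19bp1, which encodes a binding partner of Rps19, and Rps23rg1, a retrogene of Rps23 that encodes no ribosomal protein, meet the symbol rule and are kept in the count.

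The study mapped where an HA-tagged human WDR5 (HA-hWDR5) sat on chromatin in mouse embryoid bodies, by ChIP-seq with an anti-HA antibody. All groups came from Rx:GFP knock-in embryonic stem cells in which mouse Wdr5 was knocked out and HA-hWDR5 could be induced with doxycycline (Dox), grown as SFEBq embryoid bodies with Matrigel, and the file titles place the ChIP libraries at day 6. Dox was added at T12h in the first group and at T48h in the second, hours whose zero point is not stated in the labels. Each group is a single library, ChIP or input, so no comparison between the times has a replicate check, and p-values are not given. The labels give neither the number of clones behind the line nor a sample with the antibody but without HA-hWDR5. A list of bound regions holds no expression values, so the embryoid body label could not be checked against marker genes. After filtering, the ChIP libraries held 55539917 (T12h) and 67116740 (T48h) tags and their controls 54011542 and 61209779, and the authors' lists held 1197 and 660 peaks.

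In the 40S subunit a shell of proteins surrounds the small ribosomal RNA, and the whole decodes messenger RNA. Some of these proteins have counterparts in bacteria and are called universal (uS), and the others are found in eukaryotes and in part in archaea (eS). Cells make them in equal amounts, and most of their messenger RNAs begin with a run of pyrimidines, the 5′ terminal oligopyrimidine tract, through which mTOR signalling controls their translation. WDR5 is a WD40-repeat scaffold of the MLL and SET1 histone H3 lysine 4 methyltransferases, and in other cell types it is known to occupy a recurrent set of ribosomal protein genes.

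The promoters below show the DNA around the start of bound and unbound genes, and in the bound genes most of each stretch shown lies inside the peak. Among the genes that the RefSeq promoter table (GRCm38.p6) holds, they are those of the 4 highest-scoring small-subunit genes at T12h and of the first 3 in numeric order that had no peak. Each runs 5′ to 3′ on the gene's own strand, from 250 bases before the start given in the promoter table through the 30 bases that begin there. For Rps9 and Rps12 that start lies inside the annotated gene span, so part of the bases before it is also in the annotated gene. Capitals mark CGGAAG, the core of an ETS-factor site, on either strand (CTTCCG on the other). The 4 bound genes are Rps7 (chr12:28635924-28636203, minus strand), Rps15 (chr10:80292181-80292460, plus strand), Rps18 (chr17:33955636-33955915, minus strand) and Rps10 (chr17:27635215-27635494, minus strand).
Rps7: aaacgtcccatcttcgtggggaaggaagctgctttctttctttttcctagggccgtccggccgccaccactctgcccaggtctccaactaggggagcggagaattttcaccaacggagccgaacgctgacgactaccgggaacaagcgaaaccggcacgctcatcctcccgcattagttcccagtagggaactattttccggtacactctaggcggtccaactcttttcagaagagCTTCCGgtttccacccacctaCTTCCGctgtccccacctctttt
Rps15: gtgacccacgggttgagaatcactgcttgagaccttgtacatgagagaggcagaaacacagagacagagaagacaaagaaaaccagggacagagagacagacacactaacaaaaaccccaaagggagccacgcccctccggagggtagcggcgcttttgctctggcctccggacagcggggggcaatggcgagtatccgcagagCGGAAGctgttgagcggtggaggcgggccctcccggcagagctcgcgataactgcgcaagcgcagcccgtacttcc
Rps18: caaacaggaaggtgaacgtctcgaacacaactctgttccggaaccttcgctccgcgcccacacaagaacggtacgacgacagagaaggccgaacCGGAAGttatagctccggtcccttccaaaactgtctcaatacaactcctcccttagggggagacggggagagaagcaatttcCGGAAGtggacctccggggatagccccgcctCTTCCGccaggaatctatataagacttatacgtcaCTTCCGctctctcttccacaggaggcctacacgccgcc
Rps10: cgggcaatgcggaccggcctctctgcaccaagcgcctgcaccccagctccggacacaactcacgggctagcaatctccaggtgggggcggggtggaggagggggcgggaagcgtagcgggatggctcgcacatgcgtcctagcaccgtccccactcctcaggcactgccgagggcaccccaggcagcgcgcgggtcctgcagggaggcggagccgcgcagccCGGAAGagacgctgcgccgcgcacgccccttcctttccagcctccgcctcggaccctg
The 3 genes without a peak are Rps9 (chr7:3703791-3704070, plus strand), Rps12 (chr10:23787180-23787459, minus strand) and Rps13 (chr7:116334161-116334440, minus strand).
Rps9: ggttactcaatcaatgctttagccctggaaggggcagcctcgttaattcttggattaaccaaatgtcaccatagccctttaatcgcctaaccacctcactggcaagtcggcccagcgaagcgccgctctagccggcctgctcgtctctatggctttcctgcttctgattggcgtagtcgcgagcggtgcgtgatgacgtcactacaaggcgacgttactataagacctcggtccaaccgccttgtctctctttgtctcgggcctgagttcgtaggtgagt
Rps12: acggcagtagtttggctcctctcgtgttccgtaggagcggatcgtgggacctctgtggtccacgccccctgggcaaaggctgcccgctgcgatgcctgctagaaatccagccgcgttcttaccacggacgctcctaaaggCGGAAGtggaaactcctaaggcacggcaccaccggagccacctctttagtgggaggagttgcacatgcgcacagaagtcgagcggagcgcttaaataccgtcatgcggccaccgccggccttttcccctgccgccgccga
Rps13: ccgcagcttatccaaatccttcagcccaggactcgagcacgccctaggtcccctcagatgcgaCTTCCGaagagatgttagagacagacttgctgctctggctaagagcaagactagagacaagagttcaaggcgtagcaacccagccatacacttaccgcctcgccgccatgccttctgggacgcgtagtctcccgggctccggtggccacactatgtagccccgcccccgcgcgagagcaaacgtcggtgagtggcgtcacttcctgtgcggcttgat
Rps18 held 4 CGGAAG matches in the stretch shown, Rps7 held 2, and Rps15, Rps10, Rps12 and Rps13 held 1 each. Rps9 held 0. The motif was thus present on both sides of the division into bound and unbound genes.

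A gene was counted as bound when the summit of a peak lay inside it or within 1 kb of either end. By this measure 14 of the 35 genes (40%) were bound at T12h and the same 14 were bound at T48h, with 1 peak each at each time. Among all protein-coding genes 4.25% were bound at T12h, 1.69% at T48h and 1.08% at both. No small-subunit gene had a peak at 1 time alone. Of the 15 genes for universal proteins 6 were bound at both times, and of the 16 genes for eS proteins 8 were. The paralogs Rps27l and Rps27rt, both relatives of Rps27, had no peak. A further 111 entries of the annotation carry a symbol of this family without being protein-coding, 110 of them pseudogenes, and 0 had a peak at either time. How reads that fit both a gene and its pseudogenes were placed is not given in the sources used here.

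The bound genes fell among the strongest peaks of each list, and none was weak. MACS gives each peak a score, minus 10 times the log10 of its p-value. The score of the 14 peaks ran from 1254.64 to 2748.27 at T12h, where the median of the whole list was 77.4 and the lowest value 50.01. At T48h it ran from 643 to 1502.23, against a median of 63.83 in the list. The small-subunit peaks held ranks 12 to 77 of 1197 at T12h and ranks 12 to 75 of 660 at T48h. Of the 77 peaks that scored at or above the lowest of them at T12h, 14 belonged to small-subunit genes, 30 to large-subunit genes and 33 to neither. At T48h the corresponding 75 peaks comprised 14, 30 and 31. The 14 peaks together held 4532 tags at T12h and 3499 at T48h, or 4.49% and 6.10% of the tags in all peaks. Their median tag count was 334 at T12h and 264 at T48h, against 36 and 32.5 over each list.

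**Figure D1:**
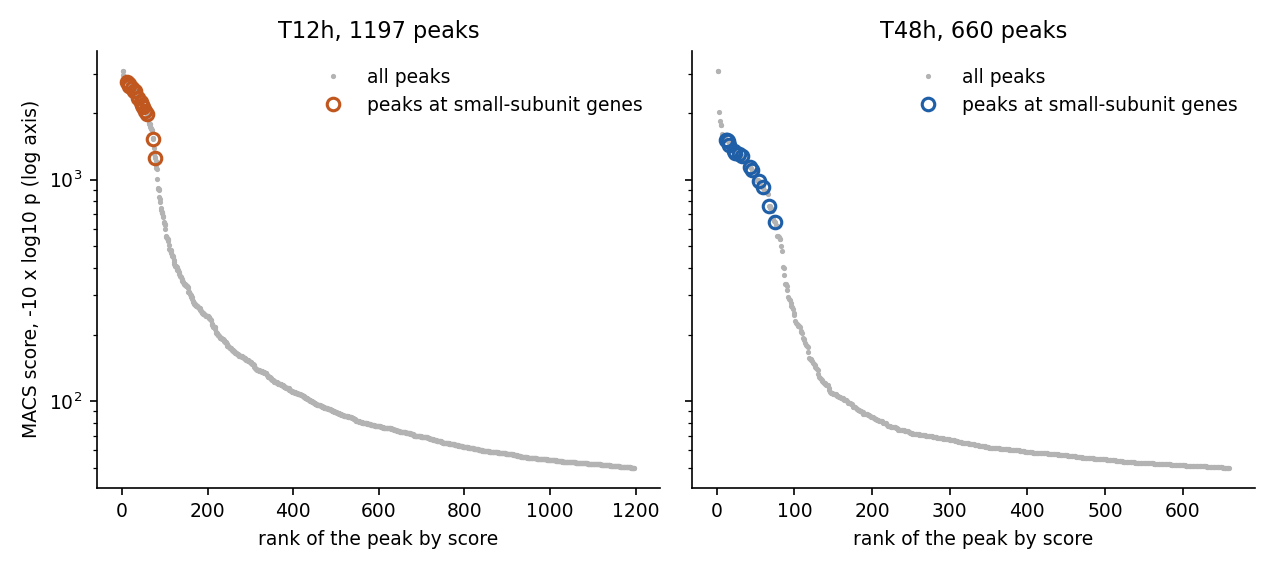
Score of every peak (vertical, minus 10 times log10 of the MACS p-value, log axis) against its rank (horizontal) at T12h (left) and T48h (right), 1 library each, with grey points for all peaks and open circles for peaks at small-subunit genes. All 14 circles lie within the first 77 ranks at T12h and the first 75 at T48h, and no circle lies in the long lower part of either list.

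Among the 6 bound genes for universal proteins, Rps15 had the highest score at T12h and Rps15a at T48h. Rps15 encodes uS19, a protein of the subunit's head next to the decoding site. Its T12h peak (chromosome 10, 80292208 to 80293180) had a fold of 39.99 over the local background and 363 tags (exact Poisson 95% interval 327 to 402). At T48h the fold was 19.82 with 265 tags (234 to 299). Rps3, or uS3, lines the channel where messenger RNA enters. The Rps3 peak (chromosome 7, 99482917 to 99483849) had a fold of 34.6 with 338 tags at T12h and of 21.7 with 307 tags at T48h. It reached into Snord15a, a small nucleolar RNA in an intron of the gene, at T12h, and stopped short of it at T48h. These intervals, here and below, cover counting error only.

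Rps15a encodes uS8, which binds ribosomal RNA in the body of the subunit. Its peak (chromosome 7, 118115541 to 118116572) had a fold of 35.32 with 302 tags at T12h and of 27.63 with 266 tags at T48h, the highest T48h fold of all 14 genes. Rps18, or uS13, sits in the head and touches the large subunit. The Rps18 peak (chromosome 17, 33954986 to 33955830) had a fold of 30.76 with 362 tags at T12h and of 19.01 with 271 tags at T48h. That peak also lay within 1 kb of Vps52, a gene of vesicle tethering, which made Rps18 the 1 small-subunit gene that shared its peak with another protein-coding gene. Rps14, or uS11, lies on the platform of the subunit and is known from the 5q- form of myelodysplasia. On chromosome 18 it had a fold of 33.16 with 311 tags at T12h and of 19.81 with 262 tags at T48h.

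Rps2, or uS5, lies beside Rps3 at the messenger RNA entry channel, and it had the lowest fold of the 14 genes at both times. The value was 21.62 with 290 tags at T12h (258 to 325; chromosome 17, 24719762 to 24720672) and 14.03 with 289 tags at T48h (257 to 324; 24719462 to 24720905). The tag counts were close, but the T48h peak was 1444 bp wide against 911 bp. The same peaks lay within 1 kb of the lncRNA gene Snhg9 and of 2 small nucleolar RNA genes in the span of Rps2, Snora78 and Snora64. Binding at Rps2 and at Snhg9 cannot be told apart from these peaks.

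Of the genes for eS proteins, Rps6 had the highest fold at T12h and at T48h. Rps6 encodes eS6, the substrate of the S6 kinases. Its peak (chromosome 4, 86856651 to 86857528) had a fold of 41.21 with 298 tags (265 to 334) at T12h, the highest T12h fold of the family, and of 26.52 with 198 tags (171 to 228) at T48h. The tag count intervals of both times do not overlap.

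Rps7, a protein known to bind the p53 regulator Mdm2, had the highest score of the family at T12h and the largest difference in fold between the times. The Rps7 peak (chromosome 12, 28635172 to 28636111) had a fold of 37.63 with 378 tags (341 to 418) at T12h and of 15.54 with 226 tags (197 to 257) at T48h. Rps24 and Rps10, 2 genes mutated in Diamond-Blackfan anaemia in people, had folds of 37.14 and 32.93 at T12h and 18.55 and 22.39 at T48h. Rps24 (chromosome 14, 24490479 to 24491508) held 353 and 248 tags at T12h and T48h, and Rps10 (chromosome 17, 27634442 to 27635454) held 349 and 247. The Rps10 peak also lay at the lncRNA gene Gm15420. The tag counts of Rps24 and Rps10 were within counting error of each other at each time.

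Rps3a1 encodes eS1, near the channel where messenger RNA leaves the subunit. Its peak (chromosome 3, 86141930 to 86142764) had a fold of 34.23 with 277 tags at T12h and of 20.24 with 166 tags (142 to 193) at T48h, the lowest T48h tag count of the 14. Rps4x, the X-linked member of the family, had the lowest tag count at T12h, 187 (161 to 216; chromosome X, 102188784 to 102189541), and 183 (157 to 212) at T48h. The fold at Rps4x was 24.1 at T12h and 21.67 at T48h, the smallest difference between the times of all 14 genes. By fold Rps4x was 13th of the 14 at T12h and 6th at T48h.

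**Figure D2:**
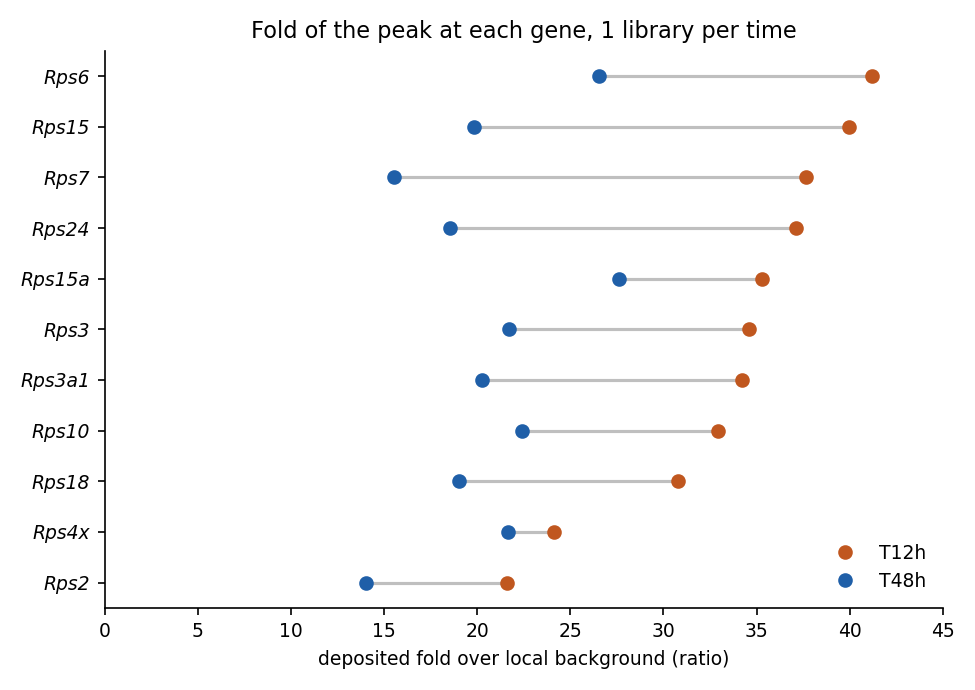
Deposited fold of the peak over the local background (horizontal, linear axis from 0) at each of the 11 bound small-subunit genes in the promoter table (rows, ordered by T12h), with orange points for T12h and blue points for T48h, 1 library each. Every orange point lies to the right of its blue point, by the least at Rps4x (24.1 against 21.67) and by the most at Rps7 (37.63 against 15.54).

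The second question is how the signal at these genes compared between the rescue times. The fold was lower at T48h at all 14 genes, and its median went from 34.41 to 20.03. Over all 225 pairs of overlapping peaks in the lists, 85.8% had a lower fold at T48h, so the direction was that of the shared peaks in general. The whole lists did not differ in this way: the median fold of all peaks was 7.31 at T12h and 7.66 at T48h. The median log2 ratio of T48h to T12h was -0.72 at the small-subunit genes (range -1.28 to -0.15), -0.60 over 33 pairs at large-subunit genes and -0.56 over all pairs. It was -0.67 over the 33 pairs at no cytosolic ribosomal protein gene whose T12h score was at or above that of Rps4x, 31 of which were lower at T48h. The difference between these medians was not tested.

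Tag counts gave the same direction. Per 1000000 filtered tags, the peaks named here held 3.37 (Rps4x) to 6.81 (Rps7) tags at T12h and 2.47 (Rps3a1) to 4.57 (Rps3) at T48h. The T48h rate was below the T12h rate at all 14 genes, against 89.8% of all overlapping pairs. The ratio of the rates had a median of 0.611 and ran from 0.495 (0.418 to 0.585) at Rps7 and 0.496 (0.407 to 0.603) at Rps3a1 to 0.810 (0.657 to 0.998) at Rps4x and 0.825 (0.698 to 0.974) at Rps2. At Rps2 the tags were counted over unlike peak widths, 911 bp at T12h and 1444 bp at T48h. Per kb of peak, the rate at Rps2 was 5.73 at T12h and 2.98 at T48h. With tags counted over each time's own peak, the upper end of the exact 95% counting interval of the ratio was under 1 at each of the 14. That count was not corrected for width, and 6 of the peaks were wider and 8 narrower at T48h. At Rps15a, 1032 bp wide at T12h and 884 bp at T48h, the rate per kb was 5.27 and 4.48. Per kb the rate was lower at T48h at all 14 genes, but intervals of that ratio were not computed. Over all overlapping pairs the median ratio of tags per 1000000, without the division by width, was 0.621. With 1 library per time, a difference in binding and a difference in the efficiency of the immunoprecipitation cannot be told apart.

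**Figure D3:**
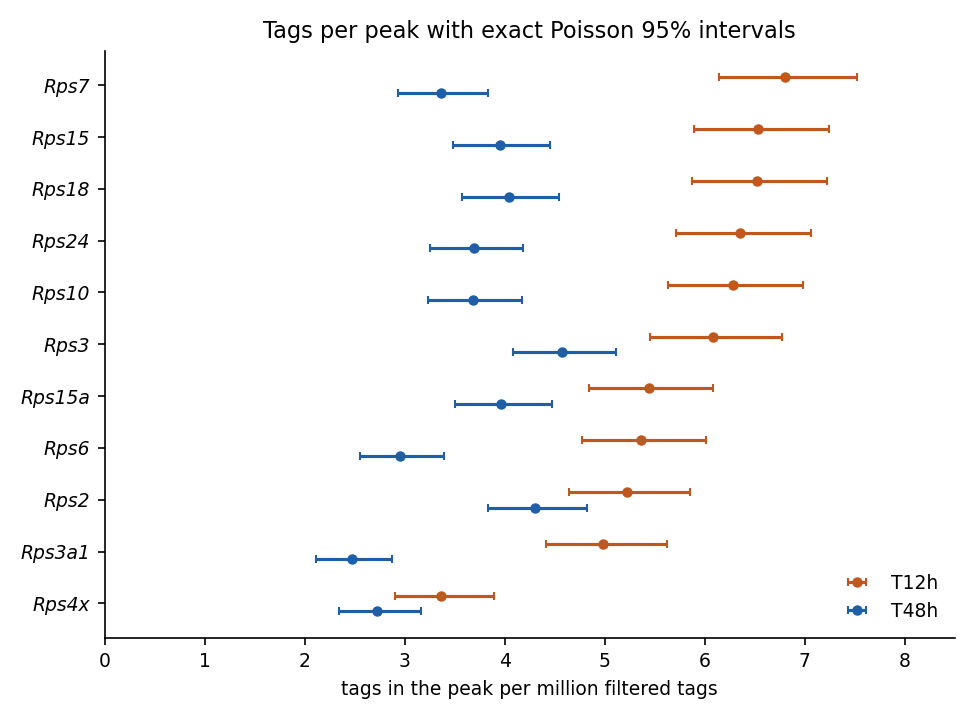
Tags in the peak per 1000000 filtered tags (horizontal, linear axis from 0) at each of the 11 bound small-subunit genes in the promoter table (rows), with T12h in orange, T48h in blue and bars for the exact Poisson 95% interval of the count. The intervals of both times overlap at Rps4x (3.37 and 2.73) and Rps2 (5.22 and 4.31) and are apart at the other genes.

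The order of the 14 genes was only partly kept between the times. Spearman's rho across the 14 genes was 0.396 for the fold, 0.292 for the score and 0.314 for the tags, where all genes share the same pair of libraries. By fold Rps6 was 1st at T12h and 2nd at T48h. Rps7 was 4th and 13th, Rps24 was 5th and 12th, and Rps15a was 6th and 1st. The folds at T48h of the genes in the middle of the order, Rps3a1, Rps15 and Rps14, were 20.24, 19.82 and 19.81, and their order cannot be resolved with a median counting half-width of 12.3% on a T48h tag count.

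The third question is where in the gene the peak lay. In all 14 genes the summit was inside the gene, a short way past the start or gene end used as reference. The promoter table gives the start and strand of 11 of the 14, and for the other 3 the distance was taken from the nearest gene end. The start used for Rps2 (24720063) lies inside its annotated span (24718121 to 24721927). Its summit was 1659 bp (T12h) and 1736 bp (T48h) from the nearest end of that span. The summit lay a median of 212 bp into the gene at T12h (60 bp at Rps10 to 268 bp at Rps3) and 196 bp at T48h (121 bp at Rps24 to 279 bp at Rps7). It lay within 300 bp downstream of the start in 11 of the 11 genes with a known start at both times. The same held for 85.2% of 27 large-subunit genes at T12h and 100% of 26 at T48h. Of other bound genes with a known start, 25.2% of 699 at T12h and 19.8% of 258 at T48h had the summit in that interval, and those counts include peaks anywhere in long genes.

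The peaks were broad for these lists and covered the start itself. Their median width was 936 bp at T12h (758 to 1211) and 892 bp at T48h (717 to 1444), against 359 and 297 bp in all peaks. Strong peaks elsewhere were as broad. The medians were 938 and 934 bp over the 33 large-subunit pairs. They were 1040 and 936 bp over the 33 pairs at no cytosolic ribosomal protein gene with a T12h score at or above that of Rps4x. The width was therefore not particular to small-subunit genes. In the 11 genes with a known start, the peak ran from a median of -165 bp to 738 bp relative to the start at T12h, and from -188 bp to 703 bp at T48h. The bound stretch therefore reached much farther into the gene than into the promoter, and its summit lay past the last base of the promoters printed above. Of the 14 genes, 6 had a wider peak at T48h and 8 a narrower one. Whether the summits fell in exons or introns was not analysed here.

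**Figure D4:**
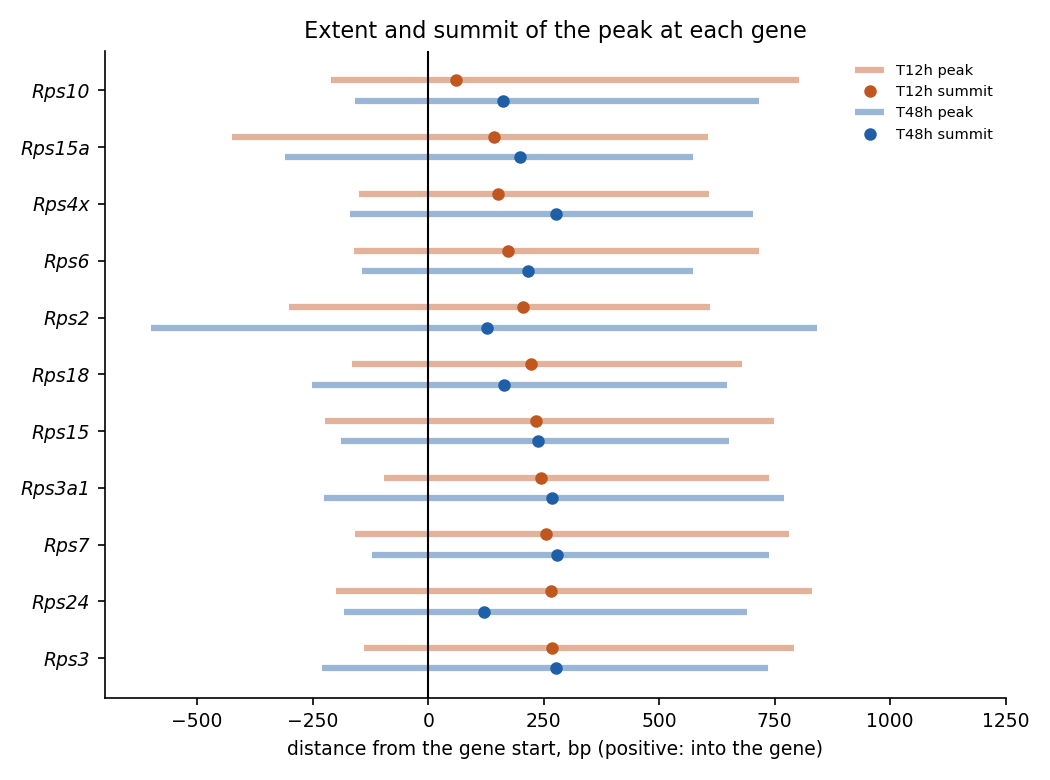
Extent (bars) and summit (points) of the T12h peak in orange and the T48h peak in blue at each of the 11 bound small-subunit genes with a known start (rows), as distance from the gene start in bp (horizontal, positive into the gene). All summits lie between 60 and 279 bp into the gene, and every bar crosses 0.

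The summits of both times lay close together. They were a median of 51 bp apart, from 4 bp at Rps15 to 145 bp at Rps24, and in 10 of the 14 genes they were within 100 bp of each other. At 9 genes the T48h summit lay farther into the gene and at 5 nearer the start. The shared stretch was 717 to 911 bp long, and it made up at least 63.1% of either peak, the lowest value being that of Rps2 at T48h. The median over all overlapping pairs was 57 bp; the fragment size that MACS estimated was 56 and 57 bp.

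No peak was listed at 21 genes. For universal proteins these included Rpsa (also known as the laminin receptor), Rps9, Rps13, Rps16, Rps20, Rps23 (uS12, of the decoding site) and Rps29. For eS proteins they included Rps12, Rps19 (the gene most often mutated in Diamond-Blackfan anaemia), Rps21, Rps25, Rps26, Rps27, Rps27a (made as a fusion with ubiquitin) and Rps28. Rps27l, Rps27rt, Rps19bp1 and Rps23rg1 had none either. The distance limit did not decide any of these: the closest summit lay 5089 bp outside Rps28 at T12h, and the next closest were 21317 bp from Rps19 at T48h and 28459 bp from Rps25 at T12h. The median distance to a summit was 262030 bp at T12h. The files list tags for called peaks alone, so a signal below the p cutoff of 1e-05 at these genes was not measured here.

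The next comparison is between bound and unbound members in features that the symbols do not fix. The annotated span had a median of 4201 bp in the 14 bound genes (1684 to 11774) and of 2201 bp in the 21 unbound genes (374 to 16779). The longest of the unbound genes is Rps23rg1, which encodes no ribosomal protein. The 19 unbound genes that do encode one had a median of 2199 bp (374 to 5220). Below 2500 bp, a limit chosen after the values were seen, were 2 bound genes, Rps15 among them, and 11 unbound ones. The ranges overlap, and unbound genes such as Rps19 (5220 bp) and Rpsa (4604 bp) were longer than the bound median. In the large subunit the medians were 3291 bp for 34 bound and 2954 bp for 22 unbound genes, a smaller difference in the same direction. These differences were not tested. Small nucleolar RNA genes lay inside 4 of the 14 bound genes (including Rps2, Rps3 and Rps3a1) and 6 of the 21 unbound ones (including Rpsa, Rps12, Rps13, Rps16 and Rps20).

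**Figure D5:**
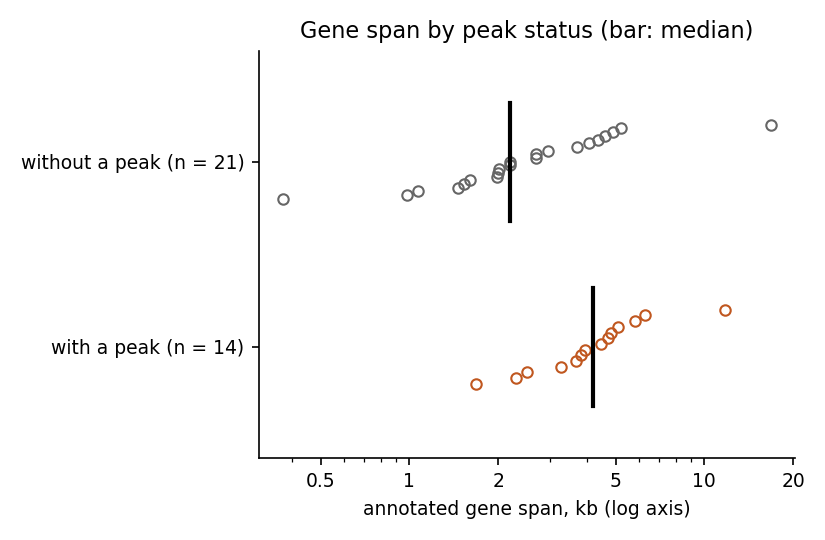
Annotated gene span in kb (horizontal, log axis) of small-subunit genes with a peak (orange, n = 14) and without a peak (grey, n = 21), with the median as a black bar. The medians are 4.20 and 2.20 kb and the ranges overlap. The longest span without a peak is that of Rps23rg1, which encodes no ribosomal protein.

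The promoter table matched 27 of the 35 genes, 11 bound and 16 unbound, the latter with Rps19bp1 and Rps23rg1 among them. Its windows run from 250 bases before the start to 50 after, and 7 letter strings were searched on both strands. CGGAAG was present in 9 of 11 bound genes (81.8%), in 11 of 16 unbound genes (68.8%) and in 21.5% of the 17492 protein-coding promoters in the table. Rps24 and Rps4x were the bound genes without it, and Rps18 had the most matches, 4. GGGCGG, the GC box bound by Sp1, was present in 6 of 11, 8 of 16 and 46.3%, and ATGGCG, part of the YY1 site, in 2 of 11, 4 of 16 and 11.2%. TATAA was found in 3 of 11, 5 of 16 and 22.8%, and CCAAT in 3 of 11, 6 of 16 and 39.2%. CACGTG, the E-box of Myc and Max, was in 0 of the 27 small-subunit windows, against 7.91% of all windows, and TGACGTCA, the cAMP response element, was in that of Rps9 alone, against 2.33%. GGGCGG and ATGGCG can overlap the first bases of CGGAAG, and CACGTG and TGACGTCA read the same on both strands.

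The run of pyrimidines near the start differed little between bound and unbound genes. The longest run of C and T that touched the 10 bases on either side of the start was CCCCTTCCTTTCC in Rps10, CTCTCTCTTCC in Rps18 and CCTCTTTTTC in Rps6, which were bound. It was CTTCCTTTTTTTCC in Rps25, CCTTTTCCCCT in Rps12 and CTCCTTTCC in Rps27, which were not. Relative to the start used, the runs of Rps10, Rps18 and Rps6 began at -3, -2 and -1. Those of Rps25, Rps12 and Rps27 began at -22, 8 and -2. The Rps25 run thus ended before that start and the Rps12 run began after it, so a run counted here need not be a terminal tract. These 6 are shown because they are among the longest runs in each class, and they were chosen after their values were seen. A run of at least 8 bases was found in 5 of 11 bound genes, 7 of 16 unbound genes and 13.6% of all promoters, and the limit of 8 was also chosen after the values were seen. The GC content had a median of 56.3% in bound genes, 57.8% in unbound genes and 56.3% in all promoters. A match is a description of the letters and does not show a bound factor.

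Genes that work with the 40S subunit were read against the share of all protein-coding genes with a peak, 4.25% at T12h and 1.69% at T48h. Of the 2 subunit components with other symbols, Rack1, a scaffold on the head, had a peak with a fold of 30.69 (425 tags) at T12h and 14.22 (258 tags) at T48h, and Fau had none. Among 44 genes for 40S assembly factors 0 had a peak at T12h and 1 at T48h (2.27%). It was Bud23, a methyltransferase of the small ribosomal RNA, with a fold of 6.43 and 26 tags. That peak was near the floor of the T48h list, with a score of 51.09 against a lowest value of 50.02. It ranked 617 of 660 and had a deposited false discovery rate of 21.23%. Of 23 genes for eIF3 and other initiation factors that load onto the subunit, Eif3d alone was bound (4.35%), with folds of 29.26 and 22.88 and summits 145 and 269 bp into the gene. Mitochondrial small-subunit genes had 1 bound member of 29 at T12h (3.45%), Mrps15 (fold 7.11), and 0 at T48h. Of the 10 S6 kinase genes that the symbol rule leaves out, Rps6ka5 had a T12h peak with a fold of 7.28, and none had a T48h peak. The T12h shares of the initiation factor and mitochondrial lists were near that of all genes, and each of these counts rests on at most 1 gene. The folds at Rack1 and Eif3d were in the range of the 14 small-subunit genes, and those at Bud23, Mrps15 and Rps6ka5 were below it.

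Large-subunit genes, the nearest family, numbered 56, of which 34 were bound at T12h and 33 at T48h. The fold at these genes had medians of 30.0 and 19.5, against 34.41 and 20.03 at the small-subunit genes, and their summits lay a median of 209 and 207 bp past the start. The range of folds was wider, from 6.34 to 48.47 at T12h, against 21.62 to 41.21. No test of these differences was made.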

How the data were processed

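HA-hWDR5 binding was taken from 1 peak list per rescue time. Per the file headers, the authors called peaks with MACS 1.4.2 on 1 ChIP library against 1 control library, at a p cutoff of 1e-05 and with at most 1 tag at any position. The submitters' processing notes name mm10, deepTools, HOMER 4.9.1, SAMtools 1.5 and Bowtie2. Per the file headers, each deposited peak has a count of tags, not normalised, a score (minus 10 times log10 p), a fold, which is a ratio to the local background, and a false discovery rate in percent. None was recomputed.

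Summits (start + summit - 1) were assigned to RefSeq genes of GRCm38.p6 within 1 kb with Python 3.11.15, numpy 2.4.6, pandas 2.3.3 and scipy 1.17.1, and plots were drawn with matplotlib 3.10.9. Each gene took its highest-scoring peak. The start of a gene is the most upstream one in the promoter table. Assignment and motif search were checked on simulated data. Intervals are exact 95% intervals. With 1 library per group no test was run. Genes are named by binding status, with printed promoters chosen by score and by number. The genes and lists were chosen with earlier results of these data known. Some small-subunit genes are counted in totals, ranges and medians but are not reported here by name. Reads and input libraries were not analysed here.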

Additional observations from a re-analysis of the deposited data

How the results depend on the processing

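Of 111 recomputed values on peaks, 109 stayed within their limits, which were 1.5 times for counts, the counting half-width for folds and the fragment size of 56 bp for distances. The 14 bound genes at each time were counted at 500 bp, at 5 kb, with the summit inside the gene, with any overlap of the peak, at a score of at least 100, in the upper 50% of each list, at equal list lengths and with the nearest gene alone. The first 3 settings could not change the count, because all 14 summits lay inside their gene and the closest summit to an unbound gene was 5089 bp away. Neither could the limits on score or list length, because the lowest of the 14 scores were 1254.64 (T12h, rank 77) and 643 (T48h, rank 75). Unchanged values under those settings are therefore no measure of robustness. Limiting peaks to a deposited false discovery rate of at most 5% left 11 genes at T12h and 10 at T48h, with 8 at both times, whose peaks overlapped in 8 and were lower at T48h in 8. The median log2 ratio of T48h to T12h was -0.95 for the score, -0.55 for tags per kb per 1000000 filtered tags and -0.71 without the division by width, against -0.72 for the fold. Of 28 motif counts 9 moved, all but 1 of them by searching the forward strand alone. No paired analysis was possible because there was a single library per group. Depth limits unbound genes: peaks alone carry tag counts.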

Other observations

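The deposited false discovery rate ran against the score at most, but not all, of these genes. At T12h it was 8.33% at Rps7 and 5.88% at Rps15, both among the 3 highest scores of the family, and 1.37% at Rps2, 13th of the 14 by score. At T48h it was 7.69% at Rps15a and 6.25% at Rps3, both among the 4 highest scores, and 2.67% at Rps3a1, the lowest by score. The lowest scores did not follow this order. Rps4x, the lowest by score at T12h, had 2.6% there. At T48h Rps4x, 12th by score, had 1.69%, below both Rps3a1 and Rps2 (2.99%). A limit of 5% on this rate nonetheless removed the strongest small-subunit peaks.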
